A study of Nicotiana tabacum with 54 samples.

Results

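The 200 genes described here were the most abundant in tobacco (*Nicotiana tabacum*) root among genes that were nearly silent in leaf and stalk. They were chosen by their measured values: the mean FPKM (fragments per kilobase of transcript, scaled to the mapped fragments of the library) over 18 libraries had to be under 1 in leaf and under 1 in stalk, the 59 NtGST genes (the glutathione S-transferase family that the study is about) were left out, and the 200 genes with the highest root mean were taken. Of 69500 gene ids in the tables, 32234 met the leaf and stalk limits and 200 were kept as members. Because the difference between root and the other tissues selected these genes, it is given below as a description with no test. A gene that is very high in a few root libraries also gains a high mean, so the rule itself favours genes that vary.

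The libraries came from root, leaf and stalk of 6 tobacco materials, labelled GDH88, VxG88, Va116, Basma, HxB and Hongda, so that each of the 18 combinations had 3 libraries and the series 54. The sample titles write HxB and VxG88 with a cross sign, as H×B and V×G88, and name no parents, so the materials may be related. The study states that each replicate held 3 plants, and every sample is labelled as taken after topping, when the flower head is cut off. No untreated or untopped plants were among the libraries, so all materials share that treatment. The paper uses other names for 3 of the materials, so the label names are kept here, and root libraries are called by the material and the number of their deposited column, as in Hongda 1.

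Roots take up water and mineral nutrients, are in contact with the microbes of the soil, and in tobacco are the place where nicotine is made before it is carried to the leaves. Topping is known to raise alkaloid synthesis in the root. The ids of the deposited tables could not be paired with gene names, since 0 of the 200 members were found in the RefSeq gene table that was used. No function or sequence is therefore given for any member, and the ids are described by their levels, their place on the genome scaffolds and the company they keep across libraries.

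Before the results, 3 facts about the root libraries have to be given. With 530 genes that differed among materials in leaf or stalk, 16 of 18 root libraries resembled the other libraries of their own label most. Basma 1 resembled the HxB libraries (r = 0.579) and not the other Basma libraries (r = -0.02), and GDH88 2 resembled the VxG88 libraries (r = 0.645) and not the other GDH88 libraries (r = -0.40). In the 38399 genes kept for testing, which reached 1 FPKM in 3 or more root libraries, Basma 1 and HxB 1 were also the closest pair of libraries. The SD of their log2 differences was 0.317, against 0.414 for the closest pair of libraries of 1 material and a median of 0.855 over the 18 such pairs. The median over the 135 pairs of different materials was 0.832. By this measure libraries of 1 material were thus in general no closer to each other than libraries of different materials. Comparisons between materials are given with and without both libraries, and levels of groups of members are given for named libraries. No counts were given in the tables, so the depth behind each value is unknown.

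In root, the mean levels of the members ran over a wide range with a steep top. The highest was Nitab4.5_0000013g0390 with a root mean of 563.9 FPKM and the lowest was Nitab4.5_0001899g0020 with 19.5 FPKM, and the median of the members was 39.4 FPKM. A root mean of at least 100 FPKM was reached by 30 members, 46 lay between 50 and 100 FPKM, and 124 were under 50 FPKM. The 10 highest members held 24.5% of the summed root means of all 200, and the 30 highest held 47.1%.

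The contrast with the shoot was close to a switch for most members. The median of the members' means was 0.0386 FPKM in leaf and 0.0517 FPKM in stalk. All 36 leaf and stalk libraries were under 1 FPKM for 113 members, and 13 members were listed at 0 in every one of them. The other 87 members reached 1 FPKM or more in at least 1 leaf or stalk library. In 166 members the lowest of the 18 root libraries was still above the highest leaf or stalk library. Stalk and leaf were near each other: the stalk mean was above the leaf mean in 99 members, below it in 88 and equal in 13.

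**Figure D1:**
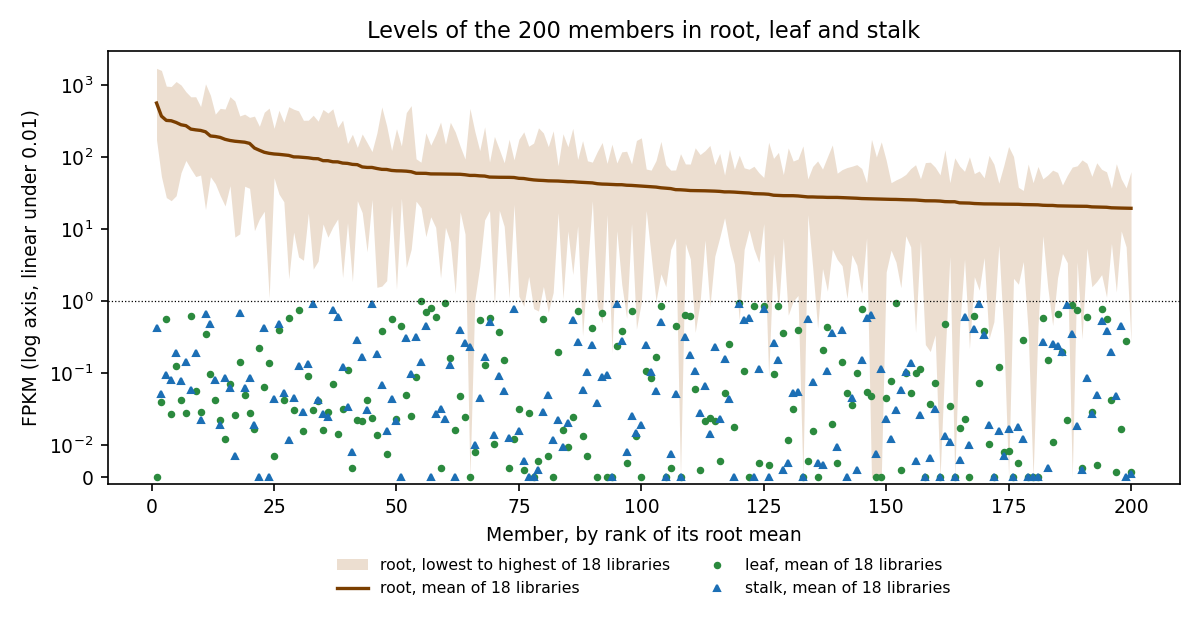
Levels of the 200 members, ordered by root mean on the horizontal axis, with FPKM on a log axis that is linear under 0.01. The line is the mean and the band the range of 18 root libraries, and the points are the leaf and stalk means, which all lie under the dotted limit of 1 FPKM that chose the members, while the root line runs between 563.9 and 19.5 FPKM.

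Summed over the members, root libraries held between 7028 FPKM (GDH88 1) and 23889 FPKM (Hongda 1), with a median of 11371 FPKM. Leaf libraries held 14.7 to 67.8 FPKM and stalk libraries 15.6 to 51.1 FPKM. The members made up 0.859% to 2.97% of the summed FPKM of a root library. These are bulk samples, in which fewer cells of a type and less RNA per cell cannot be told apart.

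The limits of the rule cut through a continuous range. Just inside the limit of 200 were Nitab4.5_0000093g0170 (19.63 FPKM), Nitab4.5_0007427g0010 (19.56 FPKM) and Nitab4.5_0001899g0020 (19.50 FPKM), and just outside were Nitab4.5_0001083g0130 (19.31 FPKM), Nitab4.5_0001871g0120 (19.09 FPKM) and Nitab4.5_0002971g0010 (19.09 FPKM). At the shoot limit, 15 members had the higher of their leaf and stalk means between 0.8 and 1 FPKM, and 9 other genes at least as high in root had it between 1 and 1.2 FPKM. Of the NtGST genes that were left out, NtGSTU28 (Nitab4.5_0000091g0400), a member of the Tau subfamily, met the limits and would have taken rank 121.

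The 10 highest members fell into a few patterns. The first of them, Nitab4.5_0000013g0390, had 173.32 FPKM in its lowest root library (VxG88 1), a median of 512.0 FPKM and 1709.2 FPKM in its highest (Hongda 1). The second, Nitab4.5_0003284g0010, ran between 53.89 and 1599.6 FPKM with a median of 274.2 FPKM, in the same lowest and highest libraries. The same was true of 4 more of the 10. Nitab4.5_0000031g0370 ran between 60.78 and 1004.9 FPKM, and Nitab4.5_0000884g0010 between 89.90 and 809.3 FPKM. Nitab4.5_0000031g0420 ran between 68.82 and 688.5 FPKM, and Nitab4.5_0000884g0030 between 53.82 and 689.4 FPKM. All 6 were thus lowest in VxG88 1 and highest in Hongda 1, and they belong to 1 group of covarying members (group B below).

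The other 4 of the 10 differed from these and partly from each other. Nitab4.5_0003638g0010 had between 27.48 FPKM (Basma 2) and 968.3 FPKM (Hongda 1), and Nitab4.5_0010789g0020 between 24.87 FPKM (Hongda 2) and 956.7 FPKM (Va116 1). Nitab4.5_0001486g0010 had 29.11 FPKM in VxG88 1 and 1121.6 FPKM in Va116 1. Nitab4.5_0003967g0020 showed a different order, with 61.04 FPKM in Hongda 1, 56.38 FPKM in HxB 1 and 73.25 FPKM in Basma 1, the 3 lowest of its libraries, and 504.4 FPKM in Va116 2. The library that was highest for the first members of the list was thus among the lowest for this one.

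Members varied more across root libraries than the other genes at least as abundant as the lowest member. The coefficient of variation (SD divided by mean) over 18 root libraries had a median of 82.6% in the members and of 34.3% in the 7573 other genes whose root mean was at least that of the lowest member. The highest library was at least 10 times the lowest, or the lowest was at 0, in 158 of 200 members (79.0%) and in 1421 of those 7573 genes (18.8%). Those genes had no upper limit of abundance and were not matched to the members' levels. Since the rule used the root mean, this is a description of the chosen genes.

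The steadiest members were Nitab4.5_0000804g0130, Nitab4.5_0000396g0230 and Nitab4.5_0000723g0110, with coefficients of variation of 32.3%, 32.9% and 34.0%. Nitab4.5_0000804g0130 had 59.8 ± 19.3 FPKM (SD, n = 18), with 24.46 FPKM in GDH88 1 as its lowest and 94.93 FPKM in Hongda 3 as its highest. Even the steadiest of the members thus varied about as much as the middle gene of that unmatched comparison set.

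The most variable members owed their means to a handful of libraries. Nitab4.5_0000928g0010 had 474.63 FPKM in GDH88 1 and 289.29 FPKM in VxG88 1, against a median of 11.1 FPKM, and was listed at 0 in 4 root libraries. Nitab4.5_0000500g0190 had 519.3 FPKM in VxG88 1 and 257.29 FPKM in VxG88 3, with a median of 21.7 FPKM. Nitab4.5_0003567g0040 had 414.96 FPKM in VxG88 1, 399.5 FPKM in VxG88 3 and 150.48 FPKM in GDH88 3, with a median of 11.4 FPKM. In each of these genes libraries of 1 material lay far apart, since VxG88 2 had 7.77, 11.03 and 5.86 FPKM. Their coefficients of variation were 223.0%, 203.6% and 202.6%.

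Across all members, 189 were above 0 in every root library and 154 had at least 1 FPKM in every one. GDH88 1 was the lowest library for 105 of 200 members and VxG88 1 for 28. Hongda 1 was the highest library for 46 members and Va116 3 for 45. The number of members with at least 1 FPKM was 162 in GDH88 1, against 194 to 200 in the other 17 root libraries.

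Differences among the 6 materials were tested in root with limma on log2(FPKM + 1) over the 38399 genes kept, all 200 members among them, with p-values adjusted by the Benjamini-Hochberg method. By the F test, 1 of 200 members (0.5%) had an adjusted p under 0.05, against 118 of all genes (0.307%). At an unadjusted p under 0.05, 25 members (12.5%) were below, against 1974 of all genes (5.14%). In contrasts of 1 material with the other 5, a call needed a fold change of 1 or more on the log2 scale, in either direction, together with an adjusted p under 0.05. Such a call was made for 1 member and for 152 of all genes (0.396%). Members are neither independent of each other nor of the rule, and these shares carry no test.

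The member that passed both was Nitab4.5_0002459g0050. It had 1.72, 10.34 and 8.23 FPKM in the 3 GDH88 root libraries, against a lowest value of 13.79 FPKM, a median of 38.9 FPKM and a highest value of 118.3 FPKM in the 15 libraries of the other materials. The groups did not overlap. Its log2 fold change in GDH88 was -2.71 (SE 0.41), with an adjusted p of 0.0482 by limma, and its adjusted p by the F test was 0.0357. The call of a lower level in GDH88 was made for 2 of 38399 genes (0.00521%). The adjusted p stood close to the threshold. Without Basma 1 and GDH88 2 the log2 fold change was -3.07 with an adjusted p of 0.00818 (limma). Over 30 other settings, left-out libraries included, the adjusted p by limma was under 0.05 in 11 and ran between 1.7e-06 and 0.874. The lowest came from the fit of all 54 libraries, which takes its spread also from leaf and stalk, where members are near 0 by the rule. The next lowest was 0.00663, without GDH88 2. Leaving out GDH88 1 gave a log2 fold change of -2.08 with an adjusted p of 0.388. The direction was lower in GDH88 in all 30.

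No other member passed. The next smallest adjusted p for a lower level belonged to Nitab4.5_0002687g0090, with 3.55, 12.93 and 8.77 FPKM in GDH88 against 14.40 to 34.51 FPKM in the other materials and a log2 fold change of -1.55 (adjusted p = 0.106, limma). For higher levels the smallest adjusted p-values were 0.152 for Nitab4.5_0002459g0050 in Hongda, with a log2 fold change of 1.74, and 0.324 for Nitab4.5_0005672g0010 in GDH88, with a log2 fold change of 1.05. Without Basma 1 and GDH88 2, 3 members passed in place of 1, all lower in their material, while the count over all genes was 381 of 37780 in place of 152.

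Non-overlap gives a coarser view of the same question. The 3 GDH88 libraries lay below all 15 others in 5 of 200 members (2.5%), against 551 of 38399 genes with any 1 material below the rest (1.43%). No other material lay below the rest in any member. No member had the 3 libraries of any material above the 15 others, against 367 of all genes (0.956%). The 5 members were the 2 already named and Nitab4.5_0000527g0250, Nitab4.5_0000534g0060 and Nitab4.5_0000440g0100, which are named after their values were seen. Without Basma 1 and GDH88 2 there were 20 such members, all below and none above, while over all genes 1690 were below and 923 above.

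As a list, the members leaned low in GDH88. Over the 200 members the log2 fold change in GDH88 had a median of -1.13, against -0.02 over all genes kept, and 170 members (85.0%) were on the low side, against 51.9% of all genes. In the other materials the members' medians were 0.53 in HxB, 0.33 in Basma, 0.29 in Hongda, 0.00 in Va116 and -0.05 in VxG88. Single libraries moved these: the median was 0.02 in Hongda without Hongda 1 and 0.68 without Hongda 3, 0.18 in Basma without Basma 1, 0.25 in Va116 without Va116 1 and 0.18 in VxG88 without VxG88 1. Part of the GDH88 value comes from 1 library: without GDH88 1 the median was -0.74, with 160 members on the low side. Without Basma 1 and GDH88 2 it was -1.25 in GDH88 and 0.24 in Basma. The lean was not tested over the list, and for single members only the call named above passed.

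**Figure D2:**
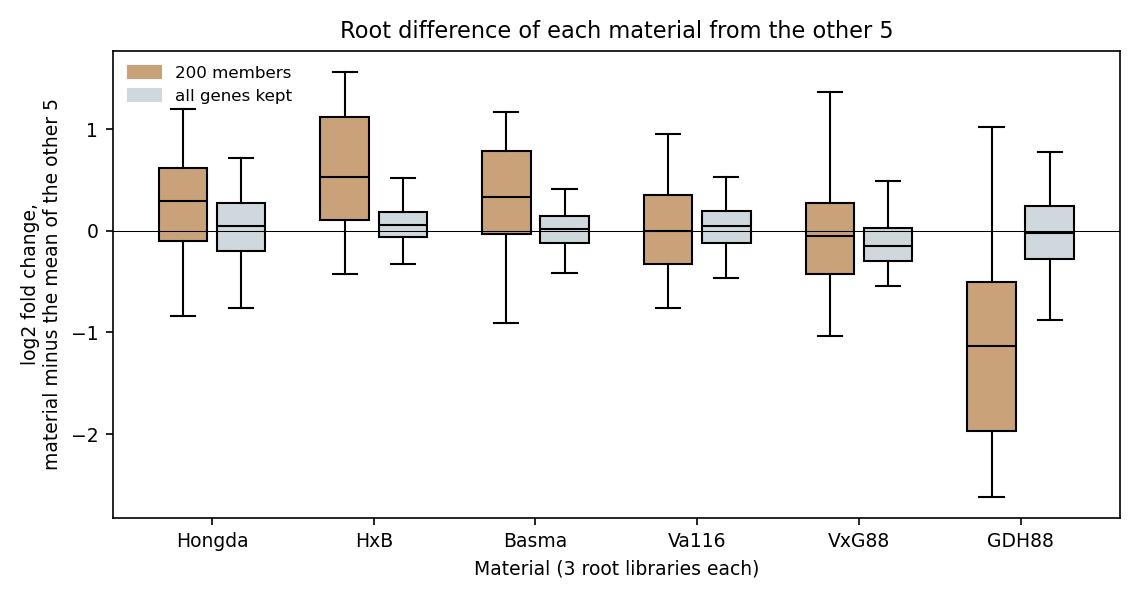
Root difference of each material from the mean of the other 5 (log2 fold change on the log2(FPKM + 1) scale), with the 200 members at the left and all 38399 genes kept at the right of each pair. Boxes span the quartiles with the median as a line, whiskers run between the 5th and 95th percentiles, and the members' box for GDH88 is the one that lies below 0, with a median of -1.13.

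The members summed to 8483 ± 1794 FPKM in GDH88 root (SD, n = 3), 11535 ± 4308 in VxG88, 13422 ± 1960 in Va116, 13375 ± 3770 in Basma, 15357 ± 1189 in HxB and 15231 ± 7500 in Hongda. The SD of Hongda was wider than the gap between any of the other materials, since its libraries held between 10735 and 23889 FPKM. Without GDH88 2 the GDH88 libraries held 7028 and 10488 FPKM, and without Basma 1 the Basma libraries held 11566 and 10850 FPKM.

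Most of the spread of most members lay within materials. The share of a member's spread over the 18 libraries (sum of squares of log2(FPKM + 1)) that lay between material means had a median of 32.8%. It was 22.8% for the 7573 other genes at least as abundant as the lowest member. The rest lay between libraries of the same material. The highest share among the members was 80.4%. Without Basma 1 and GDH88 2 the medians were 38.8% in the members and 28.0% in the other genes. Labels that carry no difference between materials would also give a share above 0, and a higher one with fewer libraries. No share of that kind was taken off these medians, so they are no measure of an effect of material.

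Part of the spread was shared between members. Over the 18 root libraries the correlation between 2 members, on log2(FPKM + 1), had a median of 0.21 over 19900 pairs, with quartiles of -0.09 and 0.48. In the 7573 other genes at least as abundant as the lowest member, not matched in level, the median was 0.00. An r of at least 0.9 was found in 5.04% of the pairs of members and in 0.382% of the pairs of those genes. Many of these pairs of members lay within group A (below), whose 50 members had a median r of 0.93 between them. The points of each correlation share library, depth and material, so no p is given. A single library carried much of the median, which was 0.06 without GDH88 1. With the material means taken out, it was 0.09.

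**Figure D3:**
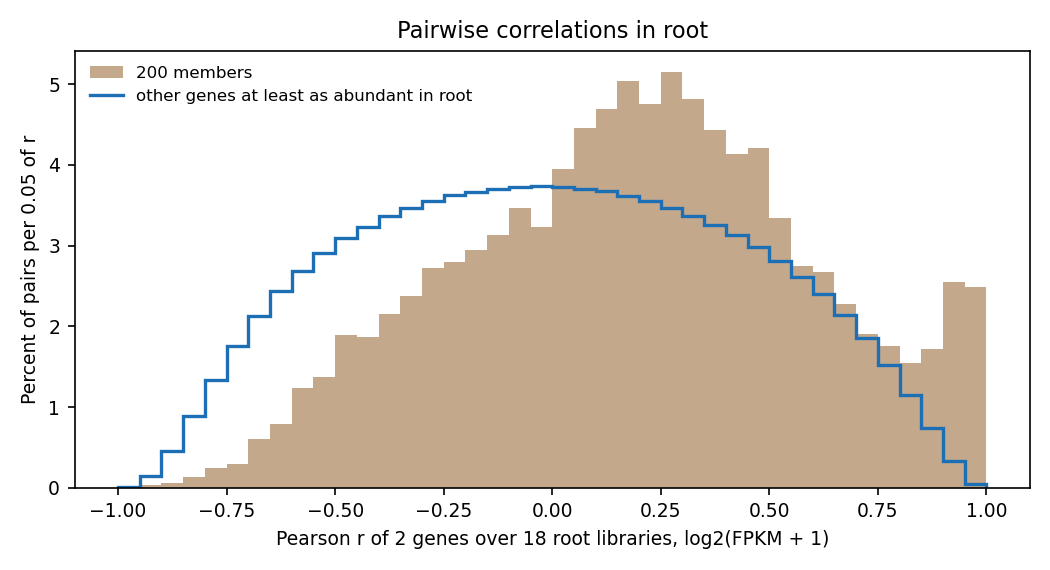
Distribution of Pearson's r between pairs of genes over 18 root libraries, as percent of pairs in steps of 0.05 of r. The filled shape is the 200 members and the line the 7573 other genes at least as abundant in root; the members show a second peak at the right end, where 5.04% of their pairs have an r of at least 0.9.

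When members were joined by likeness of their root profiles (average linkage on 1 minus r, with groups joined at an average r of 0.7), 148 of the 200 fell into 10 groups of at least 5 members, lettered A to J by size. The other 52 were in smaller groups or alone. The groups were made from the values they describe, so nothing about them is tested.

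**Figure D4:**
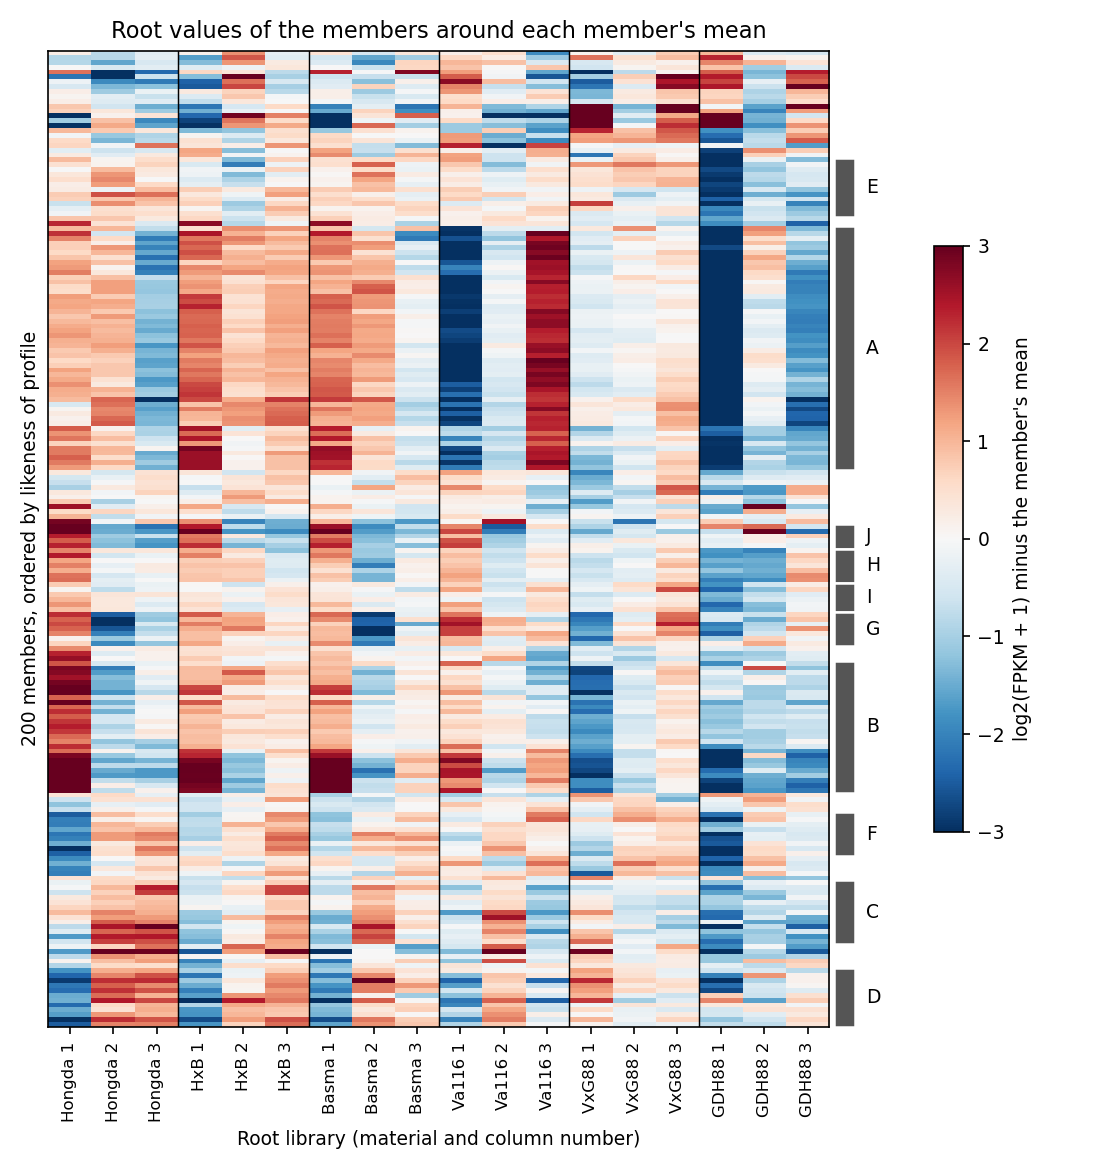
Root values of the 200 members (rows, ordered by likeness of profile, with groups A to J marked at the right) in the 18 root libraries (columns, 3 for each material). Colours give log2(FPKM + 1) minus the member's own mean, limited to 3 in either direction; the block of group A is dark blue in Va116 1 and GDH88 1 and dark red in Va116 3.

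Group A held 50 members and had the highest median r between its members of the 10 groups, 0.93. Its members lay on 44 scaffolds and had root means of 19.5 to 113.0 FPKM. Its level differed sharply between libraries of 1 label. The median over the 50 members was 118.7 FPKM in Va116 3, against 2.28 FPKM in Va116 1 and 13.2 FPKM in Va116 2, which is 52.0 times between the highest and lowest library of that material. In GDH88 the medians were 0.715, 20.6 and 6.56 FPKM, and 31 of the 50 members were under 1 FPKM in GDH88 1. In VxG88 they were 18.2, 20.9 and 31.4 FPKM, in Basma 74.7, 44.1 and 16.4 FPKM, in HxB 79.8, 39.2 and 47.3 FPKM, and in Hongda 47.5, 45.6 and 8.47 FPKM.

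The members of group A moved as a block. All 50 were higher in Va116 3 than in GDH88 1. For 41 of them Va116 3 was the highest of the 18 root libraries, and for 46 GDH88 1 was the lowest. With material means taken out the median r between them was 0.93, so the shared movement lay within materials as well. Of the 13 members listed at 0 in all leaf and stalk libraries, 10 belonged to this group.

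The closest pair on different scaffolds was in group A: Nitab4.5_0002087g0030 and Nitab4.5_0000387g0080 had an r of 0.998. The first had 324.99 FPKM in Va116 3, 3.91 FPKM in Va116 1 and 3.70 FPKM in GDH88 1, and the second had 315.83, 4.19 and 3.60 FPKM in the same libraries. The next pair, Nitab4.5_0000359g0100 and Nitab4.5_0006174g0050, also of group A, had an r of 0.998. Near-identical copies can share reads in counting, and whether these pairs are copies was not tested.

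NtGSTU28, which was left out of the list by the rule, followed group A more closely than any other gene outside the list. Its correlation with the mean profile of group A was 0.991, the highest among the 38199 genes kept that are not members. It had 89.12 FPKM in Va116 3, 1.85 FPKM in Va116 1 and 17.82 FPKM in Va116 2, and 1.02, 20.97 and 5.51 FPKM in the 3 GDH88 libraries. Its root mean was 32.1 ± 24.9 FPKM (SD, n = 18), and its leaf mean was 0.00778 FPKM while every stalk library was listed at 0. The next NtGST by this measure was NtGSTU23, with an r of 0.867 and a root mean of 2.41 FPKM. Glutathione S-transferases join glutathione to reactive compounds, and the Tau subfamily is found in plants.

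The reach of group A beyond the list was mostly into genes of the same tissue pattern. Outside the members, 127 genes had an r of at least 0.9 with its mean profile, and 101 of these (79.5%) also had leaf and stalk means under 1 FPKM, against 10.2% of all other genes kept. For group B it was 20 of 129 genes (15.5%) and for group C 17 of 154 (11.0%). The leaf and stalk values did not enter the correlation, but the group was formed from members that met these limits.

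**Figure D5:**
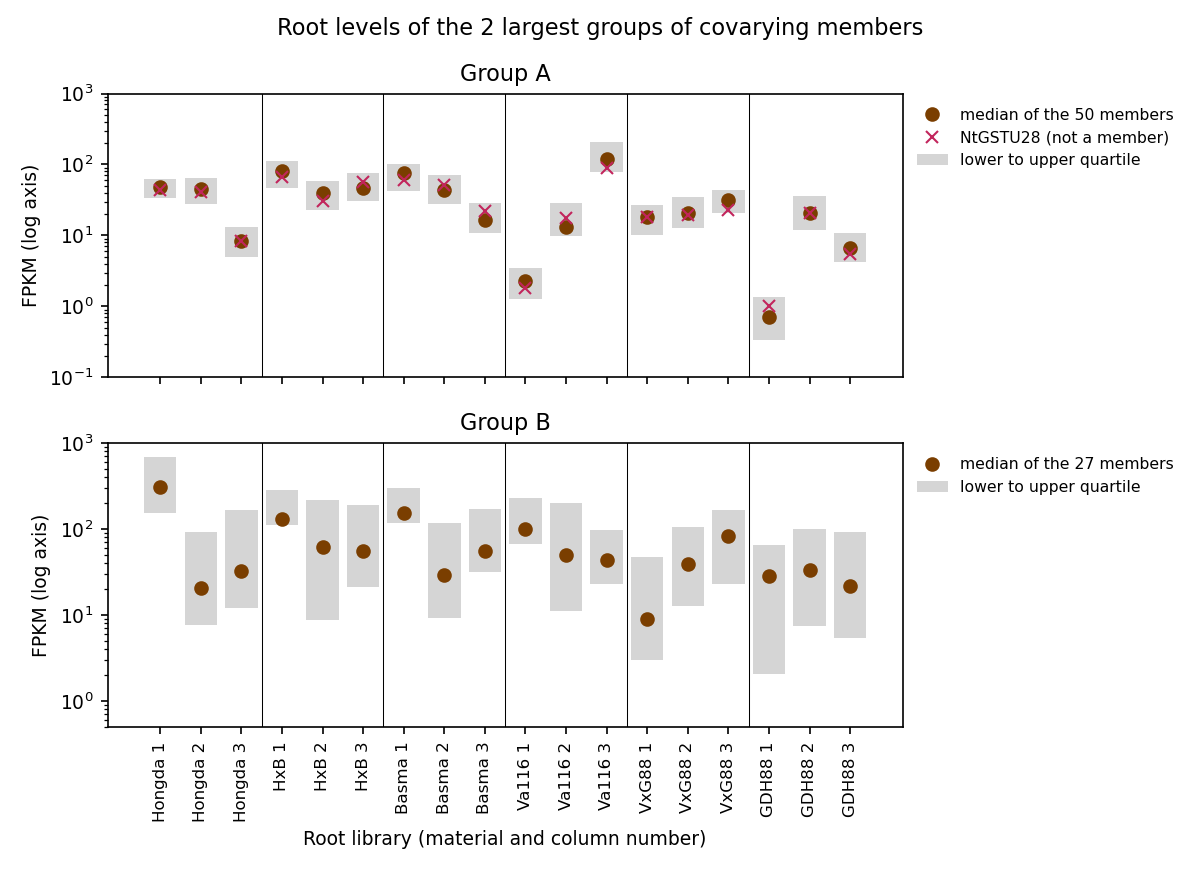
Root levels of groups A and B in the 18 libraries (FPKM, log axis, with 3 libraries for each material between the vertical lines). Dots are the median over the members and bars run between the quartiles; crosses give NtGSTU28, which moves with the median of group A, at 89.12 FPKM in Va116 3 and 1.02 FPKM in GDH88 1.

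Group B held 27 members, 6 of the 10 highest among them, and made up 26.3% of the summed root means. Its median was 306.8 FPKM in Hongda 1, against 20.4 FPKM in Hongda 2 and 32.1 FPKM in Hongda 3. It was 129.5 FPKM in HxB 1, 152.9 FPKM in Basma 1 and 99.5 FPKM in Va116 1, in each case the highest of the material, and 9.08 FPKM in VxG88 1, the lowest of all. For 25 of the 27 members Hongda 1 was the highest library. No source used here says what the column number stands for. The median r between members was 0.82, and without the libraries numbered 1 it was 0.47.

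Group D, with 12 members, ran against group B. The correlation of their mean profiles was -0.66, and the medians of group D were 4.59 FPKM in Hongda 1, 5.67 FPKM in HxB 1 and 6.29 FPKM in Basma 1, against 78.3 FPKM in Hongda 3, 63.9 FPKM in HxB 3 and 59.4 FPKM in Basma 2. Its highest member was Nitab4.5_0003967g0020. Group J, with 5 members, was the mirror of group D (r = -0.94), with medians of 140.6 FPKM in Hongda 1 and 4.59 FPKM in Hongda 3.

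The smaller groups added further patterns. Group C (13 members) was highest in Hongda 3, with a median of 75.1 FPKM, and lowest in GDH88 1, with 7.88 FPKM. Of the 10 groups, group E (12 members) had the largest share of spread between materials, with a median of 60.9%. Its medians were 2.38, 13.8 and 12.1 FPKM in GDH88 and 16.7 to 51.9 FPKM in the other materials. Nitab4.5_0002459g0050 belonged to it. All 12 members of group E had a negative log2 fold change in GDH88. The same held for every member of groups A, C, F, H and I and for 26 of 27 in group B, so it does not set group E apart. Group G (7 members) held the members ranked 3 and 4 and had medians of 142.0 FPKM in Va116 1 and 9.53 FPKM in Basma 2. Group H (7 members) was the one with most signal in leaf, where the median of its members' means was 0.731 FPKM, close to the limit.

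Position on the genome was read from the ids, whose part before the letter g names a scaffold of the Nitab4.5 assembly. The 200 members lay on 176 scaffolds of 12822 in the tables. Another member on the same scaffold was found for 43 members (21.5%), on 19 scaffolds: 15 scaffolds held 2 members, 3 held 3 and 1 held 4. The 176 scaffolds hold 3.21% of all ids, members included, which is another quantity and no background for the 21.5%. The share that 200 other ids would give was not computed. Of the 30 pairs, 20 were at most 3 places apart in the order of the ids and 8 were next to each other. Scaffolds with a member had a median of 8 listed genes, so short distances are common on them. No NtGST lay on a scaffold that holds a member.

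Members on 1 scaffold tended to share their root profile. The median r was 0.77 over the 30 pairs on 1 scaffold and 0.20 over the 19870 other pairs. An r of at least 0.7 was found in 20 of the 30 pairs (66.7%) and in 11.9% of the others. The pairs share genes and cannot be treated as independent, and neighbours may be copies that share reads, which was not tested. With ranks in place of values the median was 0.62.

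Scaffold Nitab4.5_0000031 held the most members. Nitab4.5_0000031g0370 (281.6 FPKM in root), Nitab4.5_0000031g0400 (86.2 FPKM) and Nitab4.5_0000031g0420 (245.2 FPKM) were all of group B, with r of 0.905 to 0.964 between them. The remaining member, Nitab4.5_0000031g0330 (24.6 FPKM), was of group A, 4 places from the nearest of the others, with r of 0.203 to 0.330 to them. Closeness on this scaffold thus went with a shared profile for 3 members and not for the remaining one.

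The next 3 scaffolds held 3 members each. On Nitab4.5_0000023 all were of group A: Nitab4.5_0000023g0340 (113.0 FPKM), Nitab4.5_0000023g0330 (39.6 FPKM) and Nitab4.5_0000023g0290 (21.9 FPKM), and the first and second, which are direct neighbours, had an r of 0.958. On Nitab4.5_0000314, Nitab4.5_0000314g0020 (32.7 FPKM) and Nitab4.5_0000314g0050 (21.4 FPKM) were of group E with an r of 0.943, and Nitab4.5_0000314g0060 (25.9 FPKM) was of group I. On Nitab4.5_0000723, Nitab4.5_0000723g0110 (39.2 FPKM) and Nitab4.5_0000723g0170 (32.9 FPKM) had an r of 0.735, and Nitab4.5_0000723g0230 (24.1 FPKM) had r of -0.13 and 0.153 to them.

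Of the 10 highest members, 7 had another member on their scaffold, and those ranked 3, 4 and 5 had none. Nitab4.5_0000013g0390, the highest member, was next to Nitab4.5_0000013g0380 (89.2 FPKM), another member of group B, with an r of 0.795. The members ranked 7 and 9, Nitab4.5_0000884g0010 and Nitab4.5_0000884g0030, lay 2 places apart with an r of 0.897. Nitab4.5_0003284g0010, ranked 2, lay 3 places from Nitab4.5_0003284g0040 with an r of 0.932. Nitab4.5_0003967g0020, ranked 10, was next to Nitab4.5_0003967g0010 with an r of 0.410, and these were not in 1 group. Opposite profiles on 1 scaffold were rare: the lowest r was -0.43, between Nitab4.5_0000025g0260 and Nitab4.5_0000025g0290, which lie 3 places apart. These ids were named after their values were seen.

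Direct neighbours outside the list had the same tissue pattern more often than all other ids. Of the 294 direct neighbours that are not members themselves, 27 (9.18%) had leaf and stalk means under 1 FPKM with a root mean of at least 1 FPKM, against 3.57% of all 69300 other ids. This comparison was not tested, and the neighbours were not matched in level to the other ids. Of the 69300 ids only 38199 were among the genes kept in root.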

How the data were processed

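Root, leaf and stalk RNA of 6 tobacco materials was sequenced by the authors. Their tables, 1 for each tissue, were deposited with FPKM values for 69500 ids. HISAT2, StringTie and RSEM appear in the submitters' processing notes. Their versions and options, the genome build and the handling of reads shared by near-identical genes were not given in the sources used here. FPKM as the unit is taken from the paper, and with sums of 768375 to 832327 per library TPM with some genes left out cannot be told apart. No depth could be derived. Columns were mapped to material and tissue by name, and their numbers could not be tied to single samples.

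The members and lists were chosen with earlier results of these data known. Materials were compared within root with limma 3.58.1 (R 4.3.3) and its trend option, on log2(FPKM + 1), a scale that understates the change of low genes. Genes entered with 1 FPKM or more in at least 3 root libraries. Two-sided p-values were adjusted over all of them (Benjamini-Hochberg). The functions were tested on simulated data. Correlations, groups and scaffold counts were computed in Python 3.11.15 (numpy 2.4.6, pandas 2.3.3, scipy 1.17.1, plots with matplotlib 3.10.9). The ids named are the 10 highest members, 3 on each side of the limit of 200, the 3 with the lowest and the 3 with the highest coefficient of variation, up to 2 higher and 2 lower in a material, the members of the scaffolds with most members (3 tied for the second place), the 2 closest pairs on different scaffolds and NtGST genes that would rank among the 200. Alternatives covered the pseudocount, filter, trend, quantile normalization, a replicate block, all 54 libraries in 1 fit, the measure of correlation, the limits of the rule and left-out libraries. Single left-out libraries and the settings of the groups were added after seeing the data.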

Additional observations from a re-analysis of the deposited data

How the results depend on the processing

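The count of members differing among materials was 0 or 1 under every setting except the fit of all 54 libraries, which gave 55. That fit estimates the spread also from leaf and stalk, where the members are near 0 by the rule, and it called 1314 genes in all. The count was 0 with no filter on low values and 0 with the replicate block, and with a numbered or single library left out it was 0 to 1. The count of members higher or lower in 1 material, 1 as reported, was 0 for limma without the trend, 0 with the replicate block, 75 in the fit of all 54 libraries (1286 of all genes), 3 without Basma 1 and GDH88 2 (381 of all genes), and 0 to 4 with libraries left out, the 4 being without GDH88 2 (297 of all genes). The 5 members with 1 material apart from the rest became 20 without Basma 1 and GDH88 2, and 5 to 46 with libraries left out, where fewer libraries must differ. Over all genes the 46 went with 4284 above and 4944 below, without the libraries numbered 1. The median r of members on 1 scaffold was 0.623 with Spearman's rho and 0.624 on FPKM. The list kept 113 members when every leaf and stalk library had to be under 1 FPKM, and 150 to 200 under the other rules and left-out libraries. Of the 50 members of group A, 32 stayed in the list with a limit of 2 FPKM, 34 with medians and 42 with every leaf and stalk library under 1 FPKM, and members were not grouped again under these rules. With the list as it is, other measures of likeness, joining levels and single left-out libraries kept 48 to 50 members of group A and 15 to 27 of group B together.

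The labels do not say that a column number marks a shared batch. Deviations of same-numbered libraries from their material means had correlations of -0.50 to 0.85 over 45 pairs, with a mean of 0.128. Some same-numbered libraries thus moved together and others apart, and the numbers were not taken as pairs. Differently numbered pairs had a mean of -0.06. That value is no separate comparison, since deviations cancel out within each material and tie it to the mean of the same-numbered pairs. With the replicate block Nitab4.5_0002459g0050 had adjusted p-values of 0.0797 (contrast) and 0.0780 (F test, both limma), and no member was called in either test.

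With 3 libraries a material, wide spread between them and 2 libraries that do not match their label, a difference between materials that was not called is not shown to be absent.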
